A study of Mus musculus with 11 samples.

Results

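Interferon-stimulated genes are the genes that cells switch on when an interferon, a secreted antiviral signal, binds its receptor. In the hippocampus of old and young mice, 38 such genes were followed, listed by name as members of this module. The list was chosen with earlier results of these data known. All 38 symbols were present among the 55401 genes of the deposited tables. The old group held 5 female F1 mice of 101 to 104 weeks and the young group 6 female F1 mice of 8 to 9 weeks, with ages from the labels of each mouse. A CAST mother and a BL6 father had produced 2 old and 3 young mice, and a BL6 mother and a CAST father the other 3 old and 3 young mice. BL6 is a common inbred laboratory strain and CAST a wild-derived inbred strain, so every mouse of every group carried each autosome as 1 BL6 and 1 CAST copy. None is stated to have been infected or treated. No inbred BL6 or CAST mouse was analysed here. The series asked whether genomic imprinting and X-chromosome inactivation hold in the aged brain. Each mouse gave 1 library of polyadenylated RNA, read in pairs.

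Type I interferons signal through the receptor chains Ifnar1 and Ifnar2 and the kinases Jak1 and Tyk2 to a complex that holds Stat2 and Irf9. This complex binds the interferon-stimulated response element in promoters, while interferon gamma acts on gamma-activated sites. The induced proteins sense viral RNA, degrade or edit it, block viral entry and release, or tune the response, and in the brain microglia and endothelial cells are known for a strong response. The genes are called by mouse symbol, and positions are of GENCODE M21 on GRCm38.

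The promoters show what the module shares at the level of sequence. RefSeq promoters (GRCm38.p6, 250 bases before to 50 after a gene's start) were matched by symbol for 31 of the 38 genes, and Mx1, Mx2, Ifi27, Dhx58, Oas2, Rtp4 and Usp18 had none in the table. The response element core, searched on both strands as GAAA, any 2 bases and GAAA again, was found in 18 of these 31 genes (58.1%), against 1079 of 27025 genes with a promoter (3.99%). The gamma-activated site core TTCNNNGAA, which reads the same on both strands, was found in 10 of 31 (32.3%), against 9.55% of all genes. These matches describe the letters of the window and show no binding. Promoters are printed for genes whose values are described one by one below, and these were picked after it was known which promoters hold the core. Each run is the 200 bases before the start, on the strand of the gene, with the core in capitals.
Bst2 (chr8:71537473-71537672, minus strand): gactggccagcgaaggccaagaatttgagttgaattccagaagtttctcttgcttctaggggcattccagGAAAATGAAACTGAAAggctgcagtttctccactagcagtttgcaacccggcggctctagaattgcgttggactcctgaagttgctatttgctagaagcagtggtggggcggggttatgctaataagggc
Ifit3 (chr19:34583329-34583528, plus strand): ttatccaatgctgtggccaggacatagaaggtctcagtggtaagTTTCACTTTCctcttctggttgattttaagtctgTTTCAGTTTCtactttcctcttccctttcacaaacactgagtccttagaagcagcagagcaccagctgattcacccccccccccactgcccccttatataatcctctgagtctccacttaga
Ifit3b (chr19:34607757-34607956, plus strand): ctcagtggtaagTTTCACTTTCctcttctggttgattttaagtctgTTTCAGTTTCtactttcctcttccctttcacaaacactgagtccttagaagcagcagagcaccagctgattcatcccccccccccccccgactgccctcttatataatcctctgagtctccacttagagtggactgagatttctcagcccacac
Oas1a (chr5:120907526-120907725, minus strand): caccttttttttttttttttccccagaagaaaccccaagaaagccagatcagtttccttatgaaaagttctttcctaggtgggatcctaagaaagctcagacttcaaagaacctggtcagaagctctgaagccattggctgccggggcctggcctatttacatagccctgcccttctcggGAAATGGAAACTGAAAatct
Trim30a (chr7:104465194-104465393, minus strand): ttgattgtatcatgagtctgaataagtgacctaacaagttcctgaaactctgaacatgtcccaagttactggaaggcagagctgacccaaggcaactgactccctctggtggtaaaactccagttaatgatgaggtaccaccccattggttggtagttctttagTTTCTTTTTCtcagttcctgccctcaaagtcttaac
Gbp3 (chr3:142559844-142560043, plus strand): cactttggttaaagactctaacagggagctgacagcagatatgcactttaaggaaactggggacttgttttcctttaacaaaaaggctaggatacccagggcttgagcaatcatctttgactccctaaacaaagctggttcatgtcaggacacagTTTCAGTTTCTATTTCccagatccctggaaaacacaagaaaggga
In Bst2, Oas1a and Gbp3 a pair of overlapping cores forms 1 run of 16 bases. The promoters of the neighbouring copies Ifit3 and Ifit3b hold the same pair of cores. Aligned without gaps, with the Ifit3b window shifted by 32 bases, they were identical at 138 of 168 bases (82.1%). A run of C after the cores is longer in Ifit3b, which sets the bases behind it out of step. The 82.1% therefore understates how alike these promoters are.

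Depth ran from 111.1 to 214.8 M counts per mouse, and all pairs of libraries within an age differed by more than sampling noise. Hippocampal markers were present in every library (Prox1 at 56.5 to 217 CPM, the depth-scaled count after TMM scaling and the unit of all levels below), but the libraries differed in neighbouring tissue. The 8 striatal markers summed to 178 to 1000 CPM in old mice and 165 to 3070 CPM in young mice, with Drd2, a striatal receptor, at 31.9, 74.3 and 60.8 CPM in old mouse 3 and young mice 2 and 6. The choroid plexus markers summed to 22.8 to 1010 CPM in old mice and 19.7 to 958 CPM in young mice. Nothing in the labels says whether mice were littermates. The tests treat the mice as independent, so p-values may be too small if mice of a group share a litter.

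Most of the module was expressed at a low level. On the scale of the deposited TPM, which corrects for transcript length and depth, 14 of the 38 genes averaged under 1 TPM, 21 lay between 1 and 10 TPM, and 3 were above 10 TPM. The 3 most abundant were Adar, the enzyme that converts adenosine to inosine in double-stranded RNA, at a mean of 39.9 TPM (29.6 to 47.7 over the mice), Ifi27, a small mitochondrial membrane protein, at 32.5 TPM (20.5 to 51.8), and Cmpk2, a mitochondrial nucleotide kinase, at 10.3 TPM (7.53 to 14.6). Lgals3bp, Stat2 and Ifitm3 followed at 8.06, 7.88 and 7.52 TPM, and their ranges overlap. The lowest were Oas1a at 0.0743 TPM and Ifi44 at 0.0142 TPM, which rest on 115 and 75 counts over all 11 mice.

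**Figure D1:**
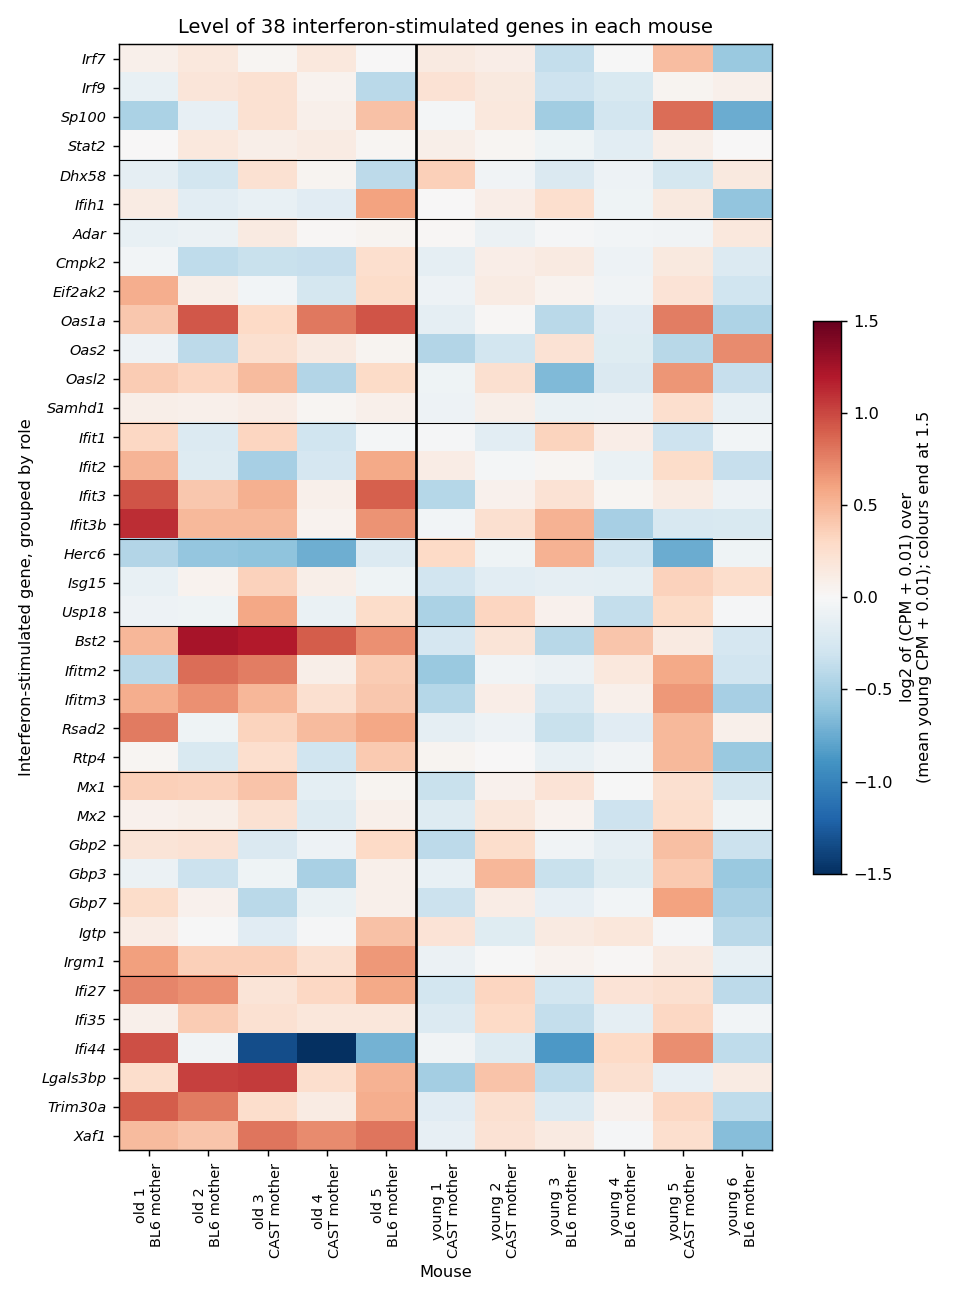
Level of each of the 38 genes (rows, grouped by role) in each of the 11 mice (columns, old mice left of the line) as log2 of CPM plus 0.01 over the young mean plus 0.01, where red is above and blue below the young mean. The rows of Bst2, Irgm1 and Xaf1 are red in all 5 old mice, as are others such as Ifit3, Ifitm3, Ifi27 and Lgals3bp. Only in Bst2, Irgm1 and Xaf1 does every old mouse lie above every young mouse. The column of young mouse 5 is mostly red, since it was the highest young mouse in 23 of the 38 genes.

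No gene of the module passed the test between old and young hippocampus, but their differences leaned upward. In edgeR's quasi-likelihood test adjusted over all 31355 genes tested, 0 of 38 had an adjusted p under 0.05 (a call), where 0.322% of all genes were called. At an unadjusted p under 0.05, 10 of 38 were higher in old mice (26.3%, against 6.8% of all genes) and 1 was lower (2.63%, against 5.56%). The log2 difference of old over young was positive in 33 of 38 (86.8%, against 47.7% of all genes), with a median of 0.11 for the module and -0.01 for all genes. DESeq2, on the same counts, called 3 genes of the module higher (Bst2, Irgm1 and Xaf1), where it called 0.917% of all genes higher. It called 0 lower, against 0.794% of all genes. In the same 3 genes every old mouse lay above every young mouse (7.89%, against 1.13% of all genes), and in 0 genes every old mouse lay below (against 0.711%).

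Markers of microglia, the resident macrophages of the brain, were also higher in old mice. Whether they followed the module from mouse to mouse within an age was not tested. The 8 microglial markers summed to 256 to 307 CPM in old mice and 157 to 255 CPM in young mice, and all 8 were higher in old mice at an unadjusted p under 0.05, with a median log2 difference of 0.44. The 8 markers of activated microglia summed to 1380 to 1580 CPM in old mice and 906 to 1320 CPM in young mice, of which Apoe made up most (1340 ± 66.2 CPM in old mice and 1030 ± 155 CPM in young mice, SD, n = 5 and 6). Itgax, Clec7a and Gpnmb of this list rose in old mice, with log2 differences of 3.04, 2.86 and 1.63 and edgeR adjusted p of 0.000792, 0.00426 and 0.023, while Spp1 and Lpl had -0.11 and -0.02. No marker of either list was at 0 in all mice. With the mean of the microglial markers as a further term, an alternative chosen after seeing the data, 1 gene of the module was higher and 1 lower at an unadjusted p under 0.05, and 23 of 38 differences were positive. The median was then 0.04 for the module and also 0.04 for all genes. Over all alternatives, this term included, the lowest differences of Bst2, Xaf1, Irgm1 and Lgals3bp were 0.72, 0.45, 0.29 and 0.51. By contrast, 21 of 38 genes changed sign under at least 1 alternative. Over all genes this term left 2 called higher and 2 called lower, against 68 and 33 without it. This term was the mean log2 level of the 8 markers, not their sum. All 8 markers were higher in old mice, so this term and age cannot be told apart. Overlap between ages was checked only for the sums. There the lowest old mouse had 256 CPM and the highest young mouse 255 CPM. The endothelial markers summed to 51.6 to 125 CPM in old mice and 56.8 to 157 CPM in young mice, and the groups overlapped. Markers of other cells also differed between ages. The astrocyte gene Gfap had a log2 difference of 1.13 with an edgeR adjusted p of 0.0583. The leptomeningeal fibroblast markers summed to 20.6 to 31.2 CPM in old mice and 30.9 to 109 CPM in young mice, and Col1a2 and Col3a1 fell (both with an edgeR adjusted p of 0.0493). All 5 perivascular macrophage markers and all 6 pericyte and smooth muscle markers had negative differences, with 0 called by edgeR or DESeq2 and 4 and 2 at an unadjusted p under 0.05. The part of these cells in the values of the module was not tested. In whole tissue, more cells of a type and more RNA per cell cannot be told apart.

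**Figure D2:**
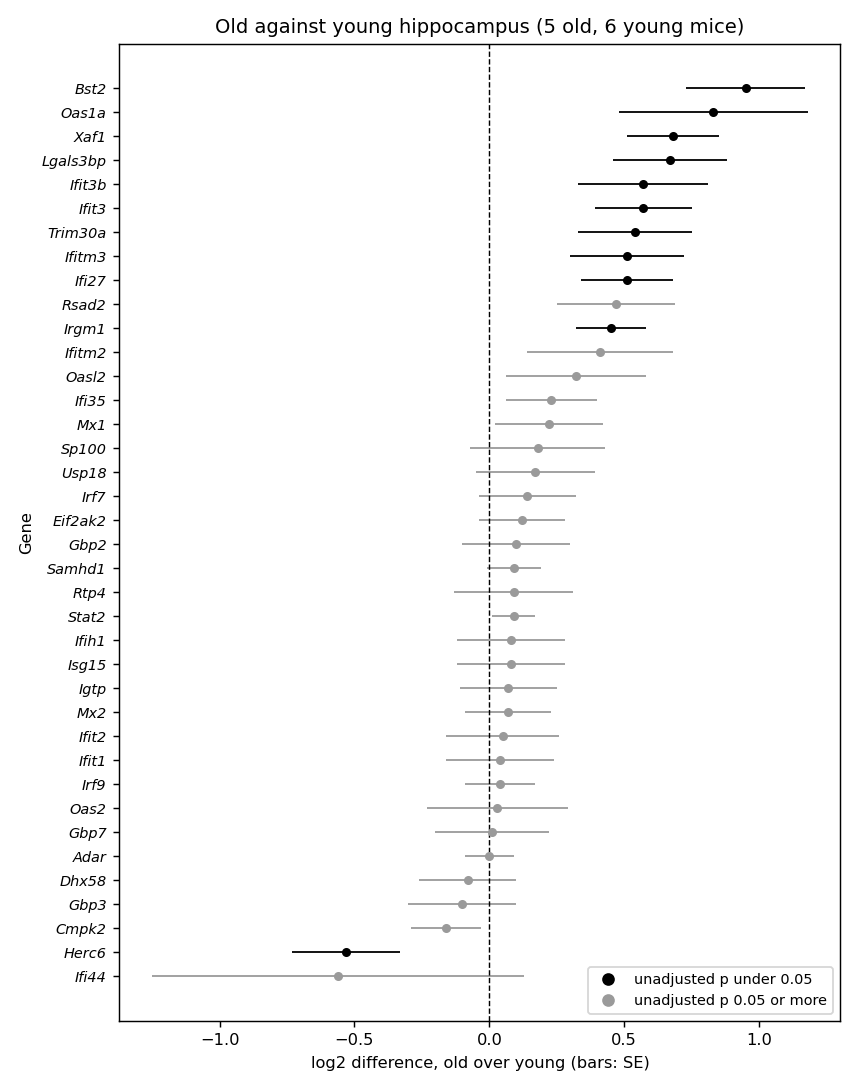
Difference between old and young mice for each gene (log2 of old over young, horizontal axis, bars are the SE of the edgeR fit), with black points for an unadjusted p under 0.05. Bst2 is highest at 0.95 and Ifi44 lowest at -0.56, and Herc6 at -0.53 is the only black point left of 0.

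Proteins that act at membranes held the largest difference. Bst2, or tetherin, which holds budding virions at the cell surface (chromosome 8, 71534255 to 71537456), had 1.01, 1.7, 1.64, 1.35 and 1.15 CPM in old mice 1 to 5, against 0.598, 0.816, 0.53, 0.957, 0.782 and 0.597 CPM in young mice 1 to 6. The lowest old mouse stood just above the highest young mouse, and Bst2 averaged 1.37 ± 0.301 CPM in old mice and 0.713 ± 0.164 CPM in young mice (SD, n = 5 and 6). The log2 difference was 0.95 ± 0.22 (SE), with an edgeR adjusted p of 0.12 and a DESeq2 adjusted p of 0.00312, within a range of 0.00312 to 0.661 over all alternatives. Its promoter, printed above, holds a pair of response element cores, as does that of Irgm1, while the windows of Xaf1, Lgals3bp and Herc6 hold none. Ifitm3, which blocks fusion of viral with endosomal membranes, had 3.06, 3.36, 2.97, 2.47 and 2.77 CPM in old mice, against 1.56, 2.24, 1.77, 2.21, 3.3 and 1.48 CPM in young mice. Young mouse 5 alone reached the old values, and the log2 difference was 0.51 ± 0.21 with an edgeR adjusted p of 0.382. Rsad2, or viperin, which makes a chain-terminating nucleotide, Ifitm2 and Rtp4 had log2 differences of 0.47, 0.41 and 0.09, each with overlapping groups. Ifitm2 shares 34.9% of its stretches of 100 bases with other genes, mostly Gm45717, so its counts are uncertain.

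The Ifit genes lie side by side on chromosome 19, and the pair with printed promoters differed most. Ifit3, one of these RNA-binding repeat proteins, had 3.18, 2.19, 2.38, 1.73 and 3.08 CPM in old mice, against 1.22, 1.72, 1.91, 1.68, 1.79 and 1.56 CPM in young mice. Old mouse 4 lay among the young mice, the other 4 old mice lay above all of them, and the log2 difference was 0.57 ± 0.18 with an edgeR adjusted p of 0.299. Its copy Ifit3b had 1.8, 1.17, 1.17, 0.866 and 1.34 CPM in old mice, against 0.81, 0.988, 1.2, 0.589, 0.704 and 0.708 CPM in young mice. The groups overlapped and the log2 difference was 0.57 ± 0.24. Because Ifit3 shares 31.7% of its 100-base stretches with Ifit3b, the split of reads between both is uncertain. Ifit1, which binds viral RNA with an incomplete cap, and Ifit2 had log2 differences of 0.04 ± 0.20 and 0.05 ± 0.21.

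Among the enzymes of double-stranded RNA and nucleotides 1 gene had an unadjusted p under 0.05. Oas1a, an oligoadenylate synthetase that switches on RNase L, had 0.0705, 0.106, 0.0647, 0.0946 and 0.107 CPM in old mice, against 0.0454, 0.0514, 0.0358, 0.044, 0.0932 and 0.0341 CPM in young mice. Young mouse 5 again lay within the old range, and the log2 difference was 0.83 ± 0.35 with an edgeR adjusted p of 0.38. These are 4 to 18 counts per mouse, and 40.9% of the 100-base stretches of Oas1a also occur in Oas1g, so its values are uncertain. Oasl2, Eif2ak2 (the kinase PKR), Samhd1 (which hydrolyses deoxynucleotides) and Oas2 had log2 differences of 0.32, 0.12, 0.09 and 0.03, and Cmpk2 had -0.16. Adar had 157 ± 10.8 CPM in old mice and 156 ± 9.82 CPM in young mice (SD, n = 5 and 6), a log2 difference of 0 ± 0.09. Part of its exons (1365 bases) overlaps Chrnb2 on the other strand, and whether counting used strand is not given in the sources used here.

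Of the interferon-inducible GTPases Irgm1 stood apart from the Gbp genes. Irgm1, which acts in autophagy of intracellular pathogens (chromosome 11, 48861968 to 48871683), had 4.36, 3.63, 3.64, 3.36 and 4.46 CPM in old mice, against 2.66, 2.81, 2.94, 2.87, 3.1 and 2.61 CPM in young mice. The groups did not overlap, and the young mice varied little (CV 6.34%, against 12.5% in old mice for the same gene). The log2 difference was 0.45 ± 0.13, with an edgeR adjusted p of 0.255 and a DESeq2 adjusted p of 0.038, within 0.038 to 0.738 over all alternatives. Gbp2, Gbp3 and Gbp7, guanylate-binding proteins that coat pathogen vacuoles, had log2 differences of 0.10, -0.10 and 0.01, and Igtp had 0.07, all with overlapping groups. The dynamin-like GTPases Mx1 and Mx2, which block viral nucleocapsids, had 0.22 ± 0.20 and 0.07 ± 0.16.

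Of the 6 genes of other function, 4 had an unadjusted p under 0.05 with higher values in old mice, where 6.8% of all genes did. Xaf1, which binds the apoptosis inhibitor XIAP (chromosome 11, 72301629 to 72313733), had 2.58, 2.47, 3.25, 3.04 and 3.23 CPM in old mice, against 1.7, 2.15, 2.03, 1.83, 2.21 and 1.19 CPM in young mice. The groups did not overlap, and the log2 difference was 0.68 ± 0.17, with an edgeR adjusted p of 0.174 and a DESeq2 adjusted p of 0.0133, within 0.0133 to 0.671 over all alternatives. Lgals3bp, a secreted galectin-binding glycoprotein, had 10.5, 17.8, 18.1, 10.4 and 12.5 CPM in old mice, against 6.1, 11.7, 6.69, 10.3, 7.97 and 9.5 CPM in young mice. Old mice 2 and 3 stood far above the rest while old mice 1 and 4 lay within the young range, and the log2 difference was 0.67 ± 0.21 with an edgeR adjusted p of 0.293. Choroid plexus markers summed to 1010 and 886 CPM in old mice 2 and 3, against 22.8 to 119 CPM in the other old mice, and to 958 and 731 CPM in young mice 2 and 4, the young mice with the most Lgals3bp. With the choroid plexus markers as a term the Lgals3bp difference was 0.70 (adjusted p 0.0793, within 0.0793 to 0.659 over all alternatives). The part of choroid plexus tissue in the Lgals3bp values was not tested. Ifi27 had 31.8, 30.8, 21.9, 23.7 and 28.5 CPM in old mice, against 15.8, 24, 15.8, 22.1, 22.6 and 14.6 CPM in young mice. The 3 highest values were the 3 old mice with a BL6 mother, and the log2 difference was 0.51 ± 0.17 with an edgeR adjusted p of 0.31. With the microglial term, which cannot be told apart from age, the Ifi27 difference was 0.04. Trim30a, which dampens Toll-like receptor signalling in mice, had 1.88, 1.71, 1.2, 1.08 and 1.45 CPM in old mice, against 0.886, 1.18, 0.86, 1.04, 1.24 and 0.76 CPM in young mice, a log2 difference of 0.54 ± 0.21 with overlapping groups. Ifi35 and Ifi44 had 0.23 ± 0.17 and -0.56 ± 0.69.

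Herc6, the mouse ligase that attaches Isg15 to proteins, was the one gene lower in old mice at an unadjusted p under 0.05. It had 7.2, 6.56, 6.43, 5.91 and 8.53 CPM in old mice, against 12.1, 9.38, 14.1, 7.96, 5.85 and 9.38 CPM in young mice. Young mouse 5 was the lowest of all 11 mice here, while it was the highest young mouse for most of the module, and the log2 difference was -0.53 ± 0.20 with an edgeR adjusted p of 0.349. Herc6 shares 10.3% of its 100-base stretches with the overlapping gene Gm45193. Its difference was 0.05 with the microglial term, which cannot be told apart from age. Isg15 itself, a ubiquitin-like tag, averaged 0.431 ± 0.0574 CPM in old mice and 0.41 ± 0.0787 CPM in young mice (SD, n = 5 and 6), and Usp18, which removes the tag, 0.45 ± 0.101 and 0.405 ± 0.0911 CPM. Their log2 differences were 0.08 ± 0.20 and 0.17 ± 0.22.

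Among the 4 transcription factors and 2 RNA sensors of the module, none had an unadjusted p under 0.05. Stat2 and Irf9, which act together at the response element, had log2 differences of 0.09 ± 0.08 and 0.04 ± 0.13. Irf7, the factor that amplifies interferon production, had 0.14 ± 0.18, and Sp100, a protein of nuclear bodies, 0.18 ± 0.25. The RNA sensors Ifih1 (MDA5) and Dhx58 (LGP2) had 0.08 ± 0.20 and -0.08 ± 0.18.

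**Figure D3:**
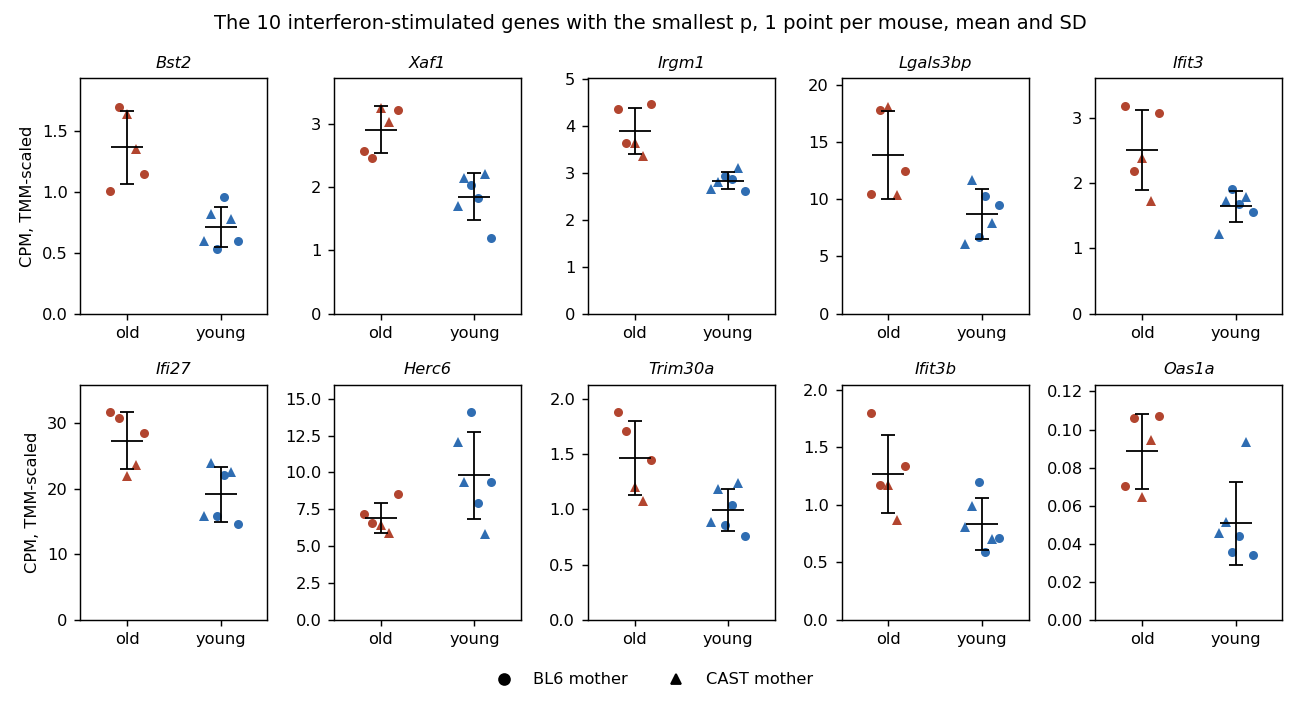
Level (CPM, vertical axes from 0) of the 10 genes with the smallest p between ages in each mouse, old left of young, with circles for a BL6 mother, triangles for a CAST mother, and bars for the mean and SD. Old and young points do not overlap in Bst2, Xaf1 and Irgm1 and overlap in the other 7 genes.

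The rest of the pathway was described with lists chosen by function. Of 21 interferon genes only Ifnk passed the filter on low counts, with a log2 difference of -0.24 ± 0.29. The other 20 had 97 counts in all over 11 libraries, and at most 6 in a mouse. The 6 receptor chains were all measured and 0 were called or reached an unadjusted p under 0.05. Ifnar1 averaged 39.6 ± 4.14 CPM in old mice and 42.2 ± 3.12 CPM in young mice (SD, n = 5 and 6), and the differences of Ifngr2, Ifnar2, Il10rb and Ifnar1 were 0.37, 0.22, 0.30 and -0.10.

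Of 10 kinases and factors 0 were called and 3 were higher at an unadjusted p under 0.05, where 6.8% of all genes were higher and 5.56% lower, the background for all lists here. Irf8, a factor of the microglial lineage, averaged 5.24 ± 0.517 CPM in old mice and 3.38 ± 0.46 CPM in young mice without overlap, a log2 difference of 0.64 with an edgeR adjusted p of 0.0943. Stat3, Irf1 and Jak2 had 0.33, 0.68 and -0.28. Of 16 sensors and adaptors 0 were called and 5 were higher at an unadjusted p under 0.05. Sting1, the adaptor of cytosolic DNA sensing, had the smallest p of these and a log2 difference of 0.76. Tlr9, Ticam1 and Aim2 had 0.62, 0.47 and 0.37. Of 10 inhibitors 0 were called and 1, the phosphatase Ptpn6, was higher at an unadjusted p under 0.05 with 0.55, while Rnaseh2b, Socs1 and Nlrx1 had -0.19, 0.53 and 0.22. DESeq2 called 0 receptors, 0 inhibitors, 2 kinases and factors (Irf8 and Stat3, adjusted p 0.000674 and 0.0246) and 1 sensor (Sting1, adjusted p 0.0429), all higher. Of all genes it called 0.917% higher and 0.794% lower.

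Interferon-stimulated genes outside the module held 1 call in edgeR. Of 79 such genes, 68 were tested, and at an unadjusted p under 0.05 19 were higher and 1 lower in old mice (6.8% and 5.56% of all genes), with a median log2 difference of 0.22, against -0.01 for all genes. Zc3hav1, the antiviral zinc finger protein that binds CG-rich viral RNA, rose in old mice, where it averaged 10.3 ± 0.88 CPM, against 3.69 ± 0.908 CPM in young mice (SD, n = 5 and 6). Its log2 difference was 1.51 ± 0.16 with an edgeR adjusted p of 0.00244. Trim30d, Psmb8, a subunit of the immunoproteasome, and Sp110 were next by p with 0.96, 0.86 and 0.77, and none of these passed in edgeR. DESeq2 called 4 genes of this list, all higher, namely Zc3hav1, Trim30d, Psmb8 and Sp110, where it called 0.917% of all genes higher. It gave no adjusted p for 10 of the 79 genes.

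Young mouse 5, young mouse 6 and old mouse 4 were often the highest or lowest of their age. Young mouse 5 was the highest young mouse in 23 of the 38 genes (60.5%, against 25.6% of all genes), and young mouse 6 the lowest in 17 (44.7%, against 19.7%). Old mouse 4 was the lowest old mouse in 18 (47.4%, against 11.7%), while old mouse 3 was the highest in 13 (34.2%, against 31.5%) and old mouse 5 in 11 (28.9%, against 19.4%). On the scale of the young mean, the median gene of the module stood at 0.25 (log2) in young mouse 5 and -0.26 in young mouse 6, and at 0.05 to 0.28 in the old mice, so young mouse 5 stood within the old range, as did young mouse 2 at 0.10. Young mouse 5 had the most counts (214.8 M), and the highest microglial (255 CPM) and endothelial (157 CPM) marker sums of the young mice. Its sums were also the highest young ones for astrocytes (1620 CPM), pericytes and smooth muscle (158 CPM), leptomeningeal fibroblasts (109 CPM) and perivascular macrophages (16.1 CPM). The same held for hippocampal neurons of the dentate gyrus (398 CPM), CA1 (498 CPM) and CA3 (46.9 CPM). Young mouse 6 had the fewest counts (111.1 M) and the lowest endothelial (56.8 CPM) and pericyte and smooth muscle (64.1 CPM) sums of the young mice. Its microglial sum was 187 CPM, above that of young mouse 1 (157 CPM), and its striatal sum was 1970 CPM. The part of these measures in the pattern was not tested. Without young mouse 5 the median difference of the module was 0.19. In the level band of 1 to 30 CPM the median CV of the module was 16.8% in old mice and 19.2% in young mice, close to the 16.9% and 18.8% of all genes in that band.

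The genes with the widest spread within an age were Ifi44, Sp100, Oas1a and Oas2. Ifi44 had 0.102, 0.0454, 0.0129, 0 and 0.0252 CPM in old mice, against 0.0454, 0.04, 0.0215, 0.0605, 0.0828 and 0.0341 CPM in young mice, with 0 to 16 counts per mouse. The count of 0 in old mouse 4 allows up to 0.0218 CPM (3 counts, counting error only). Sp100 had 0.717, 0.924, 1.18, 1.06 and 1.36 CPM in old mice, against 0.984, 1.12, 0.695, 0.825, 1.8 and 0.597 CPM in young mice, and young mouse 5 was the highest of all 11. Oas2 had 0.237, 0.189, 0.298, 0.277 and 0.259 CPM in old mice, against 0.182, 0.205, 0.294, 0.22, 0.186 and 0.418 CPM in young mice. Here young mouse 6, low in most of the module, was the highest.

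No gene of the module was called between the directions of the cross. Comparing CAST with BL6 mothers, 0 of 38 genes were called by edgeR, where 0.21% of all genes were, and DESeq2 called 0. At an unadjusted p under 0.05 there was 1 gene of the module, Sp100 (2.63%, against 2.15% of all genes), with a log2 difference of 0.57 ± 0.25 of CAST over BL6 mother. The interaction of age with cross called 0 of 38 and 0% of all genes by edgeR, and 0 of 38 by DESeq2. At an unadjusted p under 0.05 it held 7 of 38 (18.4%, against 11.8% of all genes), namely Ifit2, Ifi44, Trim30a, Eif2ak2, Ifi27, Gbp3 and Oas2. The interaction was negative in 30 of 38 (against 46.3% of all genes), that is, a smaller estimated old-over-young difference with a CAST mother. These genes share their mice, so their signs are not independent. The median difference of the module was 0.10 among mice with a CAST mother, with 23 of 38 positive, and 0.34 among mice with a BL6 mother, with 29 positive. The arm with a CAST mother rests on 2 old mice, of which old mouse 4 was the lowest old mouse in 18 of the 38 genes. Young mouse 5, the highest young mouse in 23, also had a CAST mother. Young mouse 6, the lowest young mouse in 17, had a BL6 mother. The part of these mice in the signs was not tested. Ifit2 had the smallest p, 0.0099 in edgeR with an adjusted p of 0.418. With a CAST mother it had 5.83 and 6.9 CPM in old mice, against 8.86, 8.02 and 9.94 CPM in young mice. With a BL6 mother it had 11.7, 7.2 and 12.2 CPM in old mice, against 8.36, 7.65 and 6.46 CPM in young mice. Old mice thus lay below young mice with a CAST mother, while with a BL6 mother 2 of 3 old mice lay above all young mice.

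Most genes of the module were read unevenly from their BL6 and CAST copies, as were most of all genes tested. Reads that overlap a strain difference were assigned by the authors to one copy, which gave 39 to 75.3 M allelic counts on the autosomes per mouse, of which 50.67% to 50.99% came from BL6. The copy named i4fb in the tables was taken as BL6, and 3 genes with known imprints bear on that reading. Meg3, read from the maternal copy, had an i4fb share of 0.088% to 4.2% where the mother was CAST and 99.9% to 100% where the mother was BL6, and the paternally read Snrpn and Peg3 had at least 99.8% and at most 0.0637%. With a minimum of 10 allelic reads in the mean mouse, 33 of the 38 genes were tested with edgeR, with each mouse as a block. Of these, 25 were called (75.8%, against 65.5% of all 24707 genes tested), 17 higher from BL6 (51.5%, against 40.9%) and 8 higher from CAST (24.2%, against 24.6%). The median size of the log2 ratio was 0.51 for the module and 0.25 for all genes. In 15 of the 25 every mouse lay on the same side of 50% (45.5% of those tested, against 38.8% of all genes), 8 toward BL6 and 7 toward CAST, and 5 were called with a ratio of at least 2-fold (15.2%, against 12.2%). The method of assignment is not given in the sources used here, and reads of the strain closer to the reference genome can be favoured, which was not tested gene by gene.

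**Figure D4:**
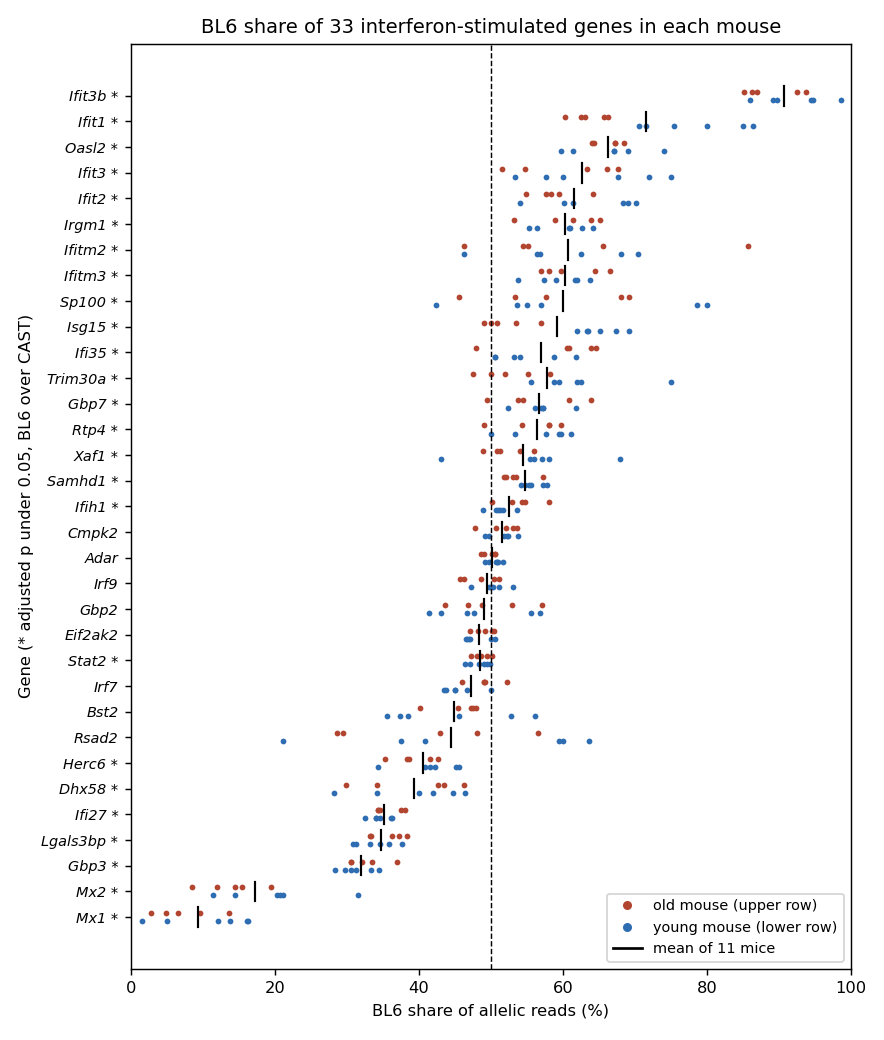
Share of allelic reads from BL6 in each mouse (horizontal axis, percent) for the 33 genes tested, ordered by log2 ratio, with old mice in the upper and young mice in the lower row of points, a bar for the mean of 11 mice and a dashed line at 50%. Ifit3b stands at the BL6 end with a mean of 90.7%, and Mx1 and Mx2 at the CAST end with 9.29% and 17.2%.

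The Mx pair on chromosome 16 was read mostly from CAST. Mx1 had a BL6 share of 6.56%, 13.6%, 4.92%, 2.78% and 9.52% in old mice, against 16.1%, 5%, 16.3%, 13.8%, 1.49% and 12.1% in young mice. With 31 to 67 allelic reads per mouse these are few reads, and the 1.49% of young mouse 5 has a Wilson 95% interval of 0.264% to 7.98%. The log2 ratio of BL6 over CAST was -3.54 ± 0.21 (SE), with an edgeR adjusted p of 3.99e-12. Mx2 had 8.5%, 14.5%, 19.4%, 15.4% and 12% in old mice, against 31.5%, 20.7%, 21.1%, 14.4%, 11.4% and 20.3% in young mice, with a log2 ratio of -2.33 ± 0.13 and an edgeR adjusted p of 2.15e-12. All 11 mice lay far below 50% for both genes. GENCODE M21 annotates Mx2 as a polymorphic pseudogene, and laboratory strains including C57BL/6 are known to carry disrupted Mx genes. The part of this in the ratio was not tested.

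The 4 Ifit genes (chromosome 19, 34550694 to 34650009, all on the plus strand) were higher from BL6. Ifit3b had a BL6 share of 85.2% to 98.6% with a median of 89.7% over 11 mice, a log2 ratio of 3.30 ± 0.19 and an edgeR adjusted p of 2.18e-12. Ifit3 ran from 51.6% to 75% (median 63.3%) at 0.75 ± 0.17, and Ifit2 from 54% to 70.1% (median 60.2%) at 0.67 ± 0.07. In every one of these genes all 11 mice lay above 50%. Only 12.2% of the counts of Ifit3 were assigned to an allele, 15 to 62 reads per mouse, against 46.6% for Ifit3b, and reads shared by these copies could fall to either. Ifit1 had a log2 ratio of 1.29 ± 0.15, and its share is described with age below.

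The 3 Gbp genes (chromosome 3, 142530342 to 142638008, plus strand) did not share a direction. Gbp3, whose promoter is printed above, had a BL6 share of 28.4% to 36.9% with a median of 31.3%, on 203 to 671 reads per mouse, and a log2 ratio of -1.09 ± 0.06. Its neighbour Gbp7 had 49.5% to 63.9% (median 57%) and a log2 ratio of 0.37 ± 0.08, and Gbp2, with 15.1% of its counts assigned, had -0.06 ± 0.15 and was not called. Gbp3 thus leaned to CAST in every mouse and Gbp7 to BL6 in 10 of 11. Irgm1 leaned to BL6 with 53.2% to 65.1% (median 61%) and a log2 ratio of 0.64 ± 0.07. Igtp had no read assigned to either copy, although it had 2277 counts in all.

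Of the other genes called toward CAST, Ifi27 had the most reads. Ifi27, with 848 to 2806 reads per mouse, had a BL6 share of 34.3%, 34.3%, 38%, 37.5% and 34.6% in old mice, against 36.2%, 34.6%, 34.1%, 36.1%, 34.1% and 32.5% in young mice. Its log2 ratio was -0.87 ± 0.03 with an edgeR adjusted p of 5.21e-17. Lgals3bp ran from 30.9% to 38.3% (median 34.6%) at -0.92 ± 0.05, Herc6 from 34.3% to 45.5% (median 41.5%) at -0.55 ± 0.05, and Dhx58 from 28.2% to 46.4% (median 41.9%) at -0.64 ± 0.13. All 11 mice leaned to CAST in these 4 genes. Stat2 was called at -0.08 ± 0.03 with 46.4% to 50.1% (median 48.6%), a small tilt that lost its call without old mouse 3 (adjusted p 0.0525). Adar, with 9288 to 15082 reads per mouse, ran from 48.6% to 51.7% (median 50.5%) and was not called at 0.01 ± 0.01.

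The other calls toward BL6 were of moderate size. Oasl2 had a BL6 share of 59.7% to 74.1% (median 67.1%) and a log2 ratio of 0.99 ± 0.11. Ifitm3 ran from 53.8% to 66.5% (median 59.7%) at 0.59 ± 0.06, and Ifitm2 from 46.2% to 85.7% (median 56.8%) at 0.61 ± 0.18 on 13 to 90 reads per mouse. Sp100, Isg15, Ifi35, Trim30a, Gbp7, Rtp4, Xaf1, Samhd1 and Ifih1 had log2 ratios of 0.56, 0.51, 0.43, 0.40, 0.37, 0.37, 0.28, 0.27 and 0.16. The calls of 3 of these genes were near the threshold. Sp100 lost its call without old mouse 2 or 3 or young mouse 3 (adjusted p 0.0572 to 0.111). Ifih1 lost it without old mouse 4 or 5 or young mouse 2 (0.0631 to 0.0913), and Xaf1 without old mouse 4 or 5 or young mouse 3 (0.0546 to 0.0925). Over all omissions of 1 mouse their ratios stayed at 0.46 to 0.79, 0.12 to 0.18 and 0.19 to 0.33. DESeq2 with all mice called none of them (adjusted p 0.0698, 0.113 and 0.0846). Tested and not called were Irf7, Irf9, Eif2ak2, Adar, Cmpk2, Bst2, Rsad2 and Gbp2. Leaving out single mice, Bst2 was called without young mouse 4 or 5 (adjusted p 0.00769 and 0.0238), Irf7 without old mouse 4 (0.045), Cmpk2 without young mouse 3 (0.0373) and Rsad2 without old mouse 3 (0.0463). With the own total of each allele column as library size, Irf7 (adjusted p 0.0175), Eif2ak2 (0.0219), Adar (0.0349) and Bst2 (0.0303) were called toward CAST, while Ifih1 (0.124) and Xaf1 (0.0503) were not called. Oas1a, Oas2, Usp18 and Ifi44, with 52 to 85 allelic reads over all mice, and Igtp were not tested.

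No allelic ratio of the module was called as different between ages. By edgeR 0 of 33 genes were called for a ratio that differs between old and young mice, where 0.154% of all genes were, and DESeq2 called 0. At an unadjusted p under 0.05 there were 3 genes (9.09%, against 7.95% of all genes), Ifit1, Isg15 and Trim30a. In Ifit1 and Isg15 the shares of old and young mice did not overlap (6.06%, against 0.816% of all genes). Isg15 had a BL6 share of 50%, 53.5%, 56.9%, 50.9% and 49.1% in old mice, against 69.2%, 62%, 67.4%, 65.1%, 63.5% and 63.3% in young mice. Old mice were thus near an even share, while all young mice leaned to BL6, and the ratio differed by -0.74 ± 0.25 (log2) with an edgeR adjusted p of 0.368. With 39 to 96 reads per mouse the Wilson intervals of old mouse 3 (45.4% to 67.7%) and young mouse 2 (48.2% to 74.1%) overlap. Ifit1 had 66.2%, 62.5%, 60.3%, 65.7% and 63.1% in old mice, against 86.4%, 80%, 75.4%, 71.6%, 70.6% and 85% in young mice. The ratio differed by -1.03 ± 0.30 with an edgeR adjusted p of 0.255, beside a total difference of 0.04 ± 0.20 in the level of Ifit1. Trim30a averaged 52.6% ± 4.23 in old mice and 62.2% ± 6.76 in young mice (SD, n = 5 and 6), on 32 to 118 reads per mouse.

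Maternal and paternal copies were tested in the same fit. By edgeR 0 of 33 genes were called, where 0.874% of all genes were, and DESeq2 called 0. At an unadjusted p under 0.05 there were 2 (6.06%, against 4.84% of all genes), Mx1 and Ifi27, with log2 differences of maternal over paternal of 0.67 and -0.06.

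**Figure D5:**
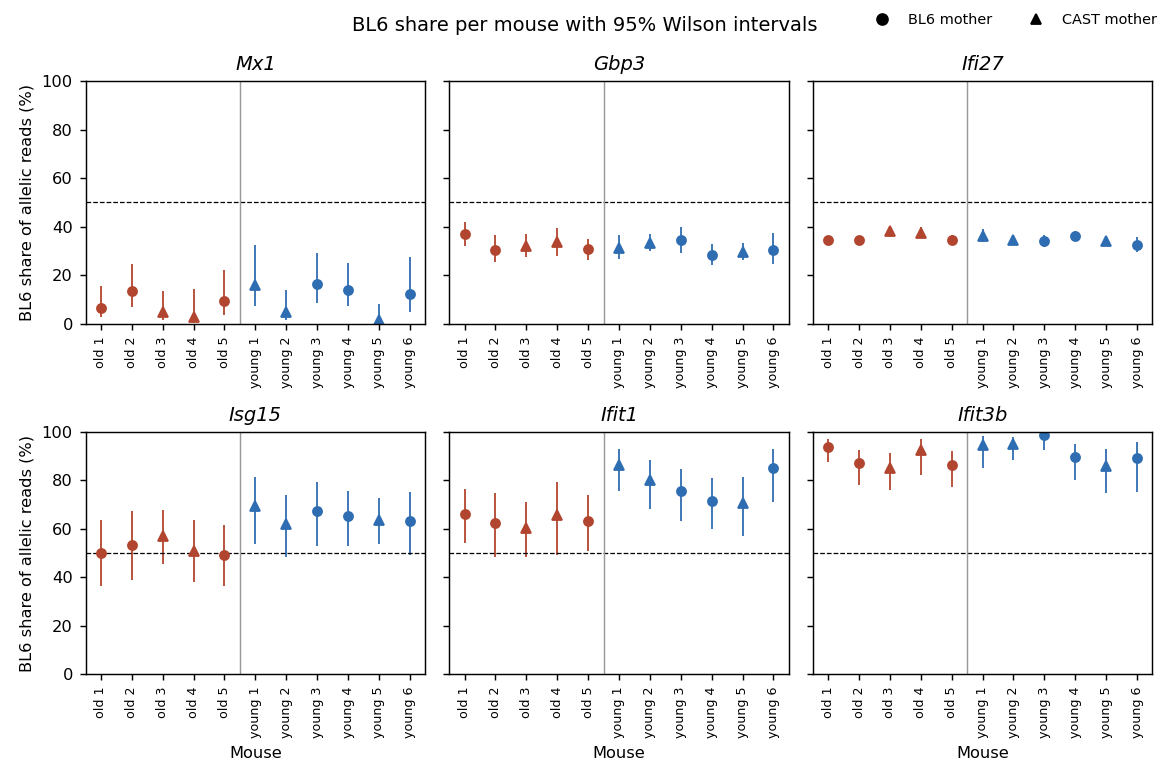
Share of allelic reads from BL6 (vertical axis, percent) in each mouse for 6 genes, old mice left of the line, with 95% Wilson intervals that cover counting error only and a dashed line at 50%. Intervals are narrow for Ifi27, which has 848 to 2806 reads per mouse, and wide for Isg15 and Ifit1, in which old mice lie below young mice.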

How the data were processed

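Hippocampal RNA of 11 female F1 mice was sequenced by the authors as directional polyadenylated libraries, 1 per mouse. Per the submitters' processing notes they used bcl2fastq 2.20, Trim Galore 0.6.6, HISAT2 2.1.0, SAMtools 1.10 and featureCounts of Subread 2.0.0, with GRCm38. The annotation release, the strand setting and the allele assignment are not given in the sources used here. As values the authors deposited raw counts per gene, TPM computed from them, and counts of reads assigned to each strain's allele.

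Ages were compared with edgeR 4.0.16 (R 4.3.3; TMM scaling, filterByExpr, quasi-likelihood test) with cross as a term, and Benjamini-Hochberg adjustment over all 31355 genes tested. Of the 55401 gene IDs, 55141 matched GENCODE M21. A gene was called at an adjusted p under 0.05. Alleles were fitted with mouse as a block and terms for strain, parent and both by age, on autosomal genes reaching 10 allelic reads in the mean mouse. SEs are the size of the log2 value over the root of F. DESeq2 1.42.0, other scalings, filters and terms, each cross alone and leaving out each library were tried as alternatives. Both fits were tested on simulated data. Depth was 111.1 to 214.8 M counts per mouse, and Wilson 95% intervals cover counting error only.

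The members, lists and tests were chosen with earlier results of these data known. Every member is named; values in every mouse are given for the 10 smallest p, the 4 largest CV and, as shares or their range, the largest allelic ratios. Up to 4 genes of each pathway list are named by smallest p.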

Additional observations from a re-analysis of the deposited data

Results flagged for a closer look

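In 4 cases 1 mouse stood far from the others of its age by Dixon's gap test at the 95% level. In total levels 2 of 76 groups were concerned. Oasl2 had 0.553 CPM in old mouse 4, where the next old mouse had 0.921 CPM. Oas1a had 0.0932 CPM (18 counts) in young mouse 5, where the next young mouse had 0.0514 CPM (9 counts). In allelic shares 2 of 66 groups were concerned. Ifi35 had a BL6 share of 47.9% in old mouse 5, where the next old mouse had 60.6%. Trim30a had a BL6 share of 75% in young mouse 6, where the next young mouse had 62.5%. On 32 reads, the Wilson 95% interval of that 75% is 57.9% to 86.7%, which includes 62.5%. Chance flags about 1 in 20 groups.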

How the results depend on the processing

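No paired analysis was possible because the replicate numbers follow the order of the samples and pair no old with a young mouse. In edgeR 0 of the 38 genes were called between ages under every alternative run, while DESeq2 called 3 higher. The direction of the age difference held under all alternatives in 17 of 38 genes, and that of the allelic ratio in 32 of 33. The smallest adjusted p of any member was 0.0578 without young mouse 4 and 0.585 without old mouse 3 and young mice 2 and 6, where 12 genes of all were called higher and 3 lower. Old-over-young log2 differences changed sign as follows. Among mice with a CAST mother they were -0.11 for Irf7, -0.17 for Sp100, 0.13 for Dhx58, -0.19 for Ifih1, -0.2 for Eif2ak2, -0.19 for Oasl2, -0.45 for Ifit2, -0.15 for Rtp4, -0.03 for Mx2, -0.26 for Gbp2, -0.38 for Gbp7 and -0.07 for Igtp. Among mice with a BL6 mother they were -0.11 for Adar, -0.45 for Oas2, -0.13 for Ifit1, -0.07 for Isg15 and 0.22 for Gbp3. With the microglial term they were -0.16 for Irf7, -0.25 for Sp100, 0.24 for Dhx58, -0.1 for Ifih1, -0.14 for Eif2ak2, -0.07 for Oasl2, -0.06 for Samhd1, -0.24 for Ifit2, 0.05 for Herc6, -0.02 for Ifitm3, -0.18 for Rtp4, -0.01 for Mx2, -0.36 for Gbp2 and -0.57 for Gbp7. Without old mouse 3 and young mice 2 and 6 they were -0.01 for Ifih1, -0.17 for Ifit1, -0.09 for Rtp4 and -0.01 for Igtp. Under RLE scaling and under DESeq2 Adar had -0.02 and Gbp7 -0.01, with no cross term Gbp7 had 0, with a striatal term Ifit2 had -0.03 and Gbp7 -0.08, and with a choroid plexus term Gbp7 had -0.02. Leaving out 1 library at a time changed the sign within ranges of -0.07 to 0.1 for Irf9, 0 to 0.33 for Sp100, -0.08 to 0.15 for Ifih1, -0.04 to 0.05 for Adar, -0.1 to 0.21 for Oas2, -0.12 to 0.11 for Ifit1, -0.07 to 0.2 for Ifit2, -0.04 to 0.23 for Rtp4, -0.2 to 0.05 for Gbp3, -0.1 to 0.15 for Gbp7 and -0.03 to 0.13 for Igtp. With each allele column's own library size the BL6-over-CAST ratio of Adar was -0.04 with an adjusted p of 0.0349, Irf7, Eif2ak2 and Bst2 were also called, and Ifih1 and Xaf1 lost their calls. DESeq2 called 14 genes higher from BL6 and 8 higher from CAST, without Sp100, Ifih1 and Xaf1. The cause was not tested in any of these cases. Low allelic read numbers limit shares such as those of Mx1, Ifit1, Ifit3, Isg15 and Ifitm2. The same holds for Sp100, Rsad2, Gbp2 and Trim30a, with 10 to 65, 14 to 37, 27 to 65 and 32 to 118 reads per mouse.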
